A study of Mus musculus with 12 samples.

Results

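The 9 genes described here, Ms4a1, Cd79a, Cd79b, Cr2, Cxcr5, Cd22, Pax5, Fcer2a and Ltb, mark B cells and the lymphoid follicles in which B cells collect. They were chosen by name from the 38924 genes counted in proximal colon RNA of 12 mice, and all 9 were found by symbol and passed the filter on low counts. In 11 of the 12 mice the 9 genes together amounted to between 3.44 and 13.7 CPM (counts scaled to library size with TMM factors). In the remaining mouse, M13_1, an APC Min/+ mouse, they amounted to 61.1 CPM, and each of the 9 genes was highest there. No member differed between genotypes beyond the spread between mice, and the higher APC Min/+ means rested on M13_1 alone.

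The series compared 6 APC Min/+ mice with 6 wild type (WT) mice to ask which colon transcripts differ before intestinal neoplasia is visible. All mice were female C57BL/6 animals of 6 weeks, and the APC Min/+ mice carried 1 copy of the Min nonsense allele of Apc in every cell, while the WT mice carried none. Each library came from 1 mouse, so the spread between libraries includes the spread between animals. Genotypes were housed apart, so that cage and genotype cannot be told apart, and the labels do not assign mice to the shipments in which they arrived.

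B cells recognise antigen through a surface antibody that signals through the CD79A and CD79B chains, and Pax5 is the transcription factor that holds them in the B cell lineage. In the wall of the mouse colon, B cells gather in isolated lymphoid follicles and colonic patches, where stromal cells expressing the chemokine CXCL13 draw in cells bearing its receptor CXCR5, and where lymphotoxin, of which Ltb encodes a chain, maintains the stroma. Follicular dendritic cells hold antigen in these structures by means of the complement receptor encoded by Cr2 and the IgE receptor encoded by Fcer2a, both of which mature B cells also carry. Antibody-secreting plasma cells lie mostly outside follicles, in the lamina propria, and have lost most of these surface genes.

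Promoter sequences of 4 members are shown because they are the genes with the largest excess in M13_1 (Cr2 and Fcer2a), an antigen receptor chain that followed them (Cd79a) and the member that followed least (Ltb). Of the 9 members, 6 had a promoter in the RefSeq table for GRCm38.p6, from 250 bases before to 50 bases after a start site, with 8 windows in all because Fcer2a had several. The windows are chr1:195176670-195176969 (minus strand), chr8:3694125-3694424 (minus strand), chr7:24897247-24897546 (plus strand) and chr17:35194257-35194556 (plus strand), each written 5′ to 3′ on the gene's strand. Capitals mark matches to 4 motifs searched on both strands: the octamer ATTTGCAT, the EBF core CCCNNGGG, the PU.1 core GAGGAA and the ETS site AGGAAGTG, of which the last 2 can share bases.
Cr2: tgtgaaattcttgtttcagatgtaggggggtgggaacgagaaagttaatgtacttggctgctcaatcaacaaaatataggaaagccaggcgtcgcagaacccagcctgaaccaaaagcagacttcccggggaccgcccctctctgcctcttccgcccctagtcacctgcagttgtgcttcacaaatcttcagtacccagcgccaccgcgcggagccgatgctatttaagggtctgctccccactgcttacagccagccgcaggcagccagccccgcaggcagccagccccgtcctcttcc
Fcer2a: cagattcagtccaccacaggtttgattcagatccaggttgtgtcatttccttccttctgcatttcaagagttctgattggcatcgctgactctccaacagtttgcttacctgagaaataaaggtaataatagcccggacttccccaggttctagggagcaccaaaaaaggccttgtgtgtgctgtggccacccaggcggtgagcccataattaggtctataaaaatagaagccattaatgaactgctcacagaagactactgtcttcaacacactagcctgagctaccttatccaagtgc
Cd79a: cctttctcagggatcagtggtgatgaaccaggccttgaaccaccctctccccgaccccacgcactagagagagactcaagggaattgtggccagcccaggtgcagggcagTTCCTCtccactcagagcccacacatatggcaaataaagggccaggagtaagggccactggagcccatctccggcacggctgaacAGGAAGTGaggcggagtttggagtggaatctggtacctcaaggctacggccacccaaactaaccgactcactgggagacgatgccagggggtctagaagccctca
Ltb: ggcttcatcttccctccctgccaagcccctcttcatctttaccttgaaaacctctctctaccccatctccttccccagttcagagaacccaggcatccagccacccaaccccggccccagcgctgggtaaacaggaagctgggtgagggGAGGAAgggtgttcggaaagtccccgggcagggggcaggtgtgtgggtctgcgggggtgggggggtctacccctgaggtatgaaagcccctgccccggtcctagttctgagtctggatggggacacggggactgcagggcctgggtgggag
The PU.1 core occurred in the Cd79a and Ltb windows and in 28.3% of all 32851 promoters of this length. The ETS site occurred in the Cd79a window and in 4.07% of promoters. The EBF core occurred among the members in the Cd22 window, which is not printed, and in 13.7% of promoters, and the octamer, found in 1.74% of promoters, occurred in none of the members' windows. These matches describe letters in the windows, and the Cr2 and Fcer2a windows held none of the 4 motifs.

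Total counts on genes lay between 50313805 and 197914821 per mouse, so that 3 counts equal 0.0151 to 0.056 CPM depending on the library. Reads were paired, and among genes with 1 to 60 counts between 73.4% and 79.7% of the counts in each mouse were even. Whether both reads of a pair were counted is not given in the sources used here, so intervals from counts, which cover counting error only, are given also with counts halved. The labels call the tissue mucosa, yet smooth muscle genes were abundant (Myh11, the smooth muscle myosin, was counted at 1928 ± 303 CPM in APC Min/+ mice and 1954 ± 360 CPM in WT mice, SD, n = 6 each). M13_1 and another APC Min/+ mouse, M10_2, stood apart from the other 10 mice in genes of the distal colon, with Hoxb13, a homeobox gene of the posterior body, at 275 CPM and 378 CPM against at most 0.744 CPM elsewhere, although Hoxd13 was 209 CPM in M13_1 and 12.4 CPM in M10_2 against at most 0.533 CPM. Results are therefore given with and without these libraries. In bulk tissue, fewer cells of a type and less RNA per cell cannot be told apart.

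Cr2, which encodes complement receptors 1 and 2, lies on chromosome 1 of GRCm38 (195136811 to 195176716, minus strand). It was counted at 12.4 CPM in M13_1, 0.818 in M10_2, 0.315 in M2_A, 0.306 in M20_1, 0.16 in M18_2b and 0.0615 in M8_2, and in WT mice at 1.11 in M16_1, 1.01 in M17_1, 0.429 in M18_b, 0.143 in M18_2a, 0.0769 in M19_1 and 0.0374 in M17_2. M13_1 lay 11.2 times above the next mouse, whereas the other APC Min/+ mice fell inside the WT range. Of all Cr2 CPM summed over the 12 mice, 73.6% came from M13_1.

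Fcer2a, the low-affinity IgE receptor CD23, is on chromosome 8 (3681737 to 3694175, minus strand). Its CPM was 7.63 in M13_1, 0.576 in M10_2, 0.315 in M2_A, 0.128 in M20_1, 0.1 in M18_2b and 0.0308 in M8_2. In WT mice it was 0.741 in M16_1, 0.49 in M18_b, 0.47 in M17_1, 0.16 in M18_2a, 0.149 in M17_2 and 0.0577 in M19_1. The order of mice was close to that of Cr2, and M13_1 was again 10.3 times above the next mouse and 47.6 times above the median of the other 11.

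Ms4a1 encodes CD20, a membrane protein of B cells, on chromosome 19 (11249675 to 11266241, minus strand). Its CPM was 11.1 in M13_1, 1.22 in M10_2, 0.998 in M2_A, 0.485 in M20_1, 0.321 in M18_2b and 0.267 in M8_2. In WT mice it was 1.84 in M16_1, 1.59 in M17_1, 1.14 in M18_b, 0.588 in M18_2a, 0.336 in M17_2 and 0.288 in M19_1. The genotype ranges overlapped, and M13_1 was 18.9 times the median of the other 11 mice. Ms4a1 lies within an antisense gene on the opposite strand, 4930526L06Rik, which reached 0.224 CPM at most.

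Cd79a and Cd79b encode the signalling chains of the B cell antigen receptor, on chromosome 7 (24897381 to 24902197, plus strand) and chromosome 11 (106311341 to 106314762, minus strand). Cd79a ranged from 0.204 to 6.82 CPM with a median of 0.919 in APC Min/+ mice, and from 0.384 to 2.49 CPM with a median of 1.06 in WT mice. Cd79b ranged from 0.549 to 7.69 CPM with a median of 1.51 in APC Min/+ mice, and from 0.672 to 3.55 CPM with a median of 1.71 in WT mice. The WT medians were the higher ones for both genes, and the highest value was that of M13_1, at 9.45 times (Cd79a) and 5.95 times (Cd79b) the median of the other 11 mice. In each case the next mouse was WT mouse M16_1 and the lowest was APC Min/+ mouse M20_1.

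Cd22, an inhibitory receptor of B cells on chromosome 7 (30865402 to 30880342, minus strand), ranged from 0.409 to 9.21 CPM with a median of 1.04 in APC Min/+ mice and from 0.486 to 1.6 CPM with a median of 0.974 in WT mice. M13_1 was 9.74 times the median of the other 11 mice, and the next was WT mouse M17_1. Pax5, on chromosome 4 (44524757 to 44710487, minus strand), was the least abundant member, with 83 counts (0.917 CPM) in M13_1, 34 in M10_2, 14 in M16_1 and between 0 and 9 in the other 9 mice. A count of 0, seen in M8_2 and M20_1, allows up to 0.0154 and 0.0383 CPM (3 counts, counting error only), so differences among the low mice were not detectable at this depth. Antisense genes overlap Cd22 and Pax5, and whether the counting used strand is not given in the sources used here, so reads from such pairs cannot be told apart.

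Cxcr5, the receptor that guides B cells into follicles, lies on chromosome 9 (44511787 to 44561877, minus strand) and ranged from 0.261 to 3.16 CPM with a median of 0.481 in APC Min/+ mice, and from 0.232 to 0.939 CPM with a median of 0.639 in WT mice. M13_1 was 6.28 times the median of the other 11 mice. Cxcr5 overlaps 110 bp of Bcl9l on the opposite strand, and Bcl9l was counted at 12.2 to 34.8 CPM, so Cxcr5 is uncertain where it is low. Ltb, on chromosome 17 (35194439 to 35196320, plus strand), ranged from 0.833 to 2.2 CPM with a median of 1.08 in APC Min/+ mice, and from 0.691 to 1.45 CPM with a median of 1.02 in WT mice. It was highest in M13_1 too, but at 2.18 times the median of the other 11 mice and 1.52 times the next mouse, and T cells and innate lymphoid cells express it as well as B cells.

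**Figure D1:**
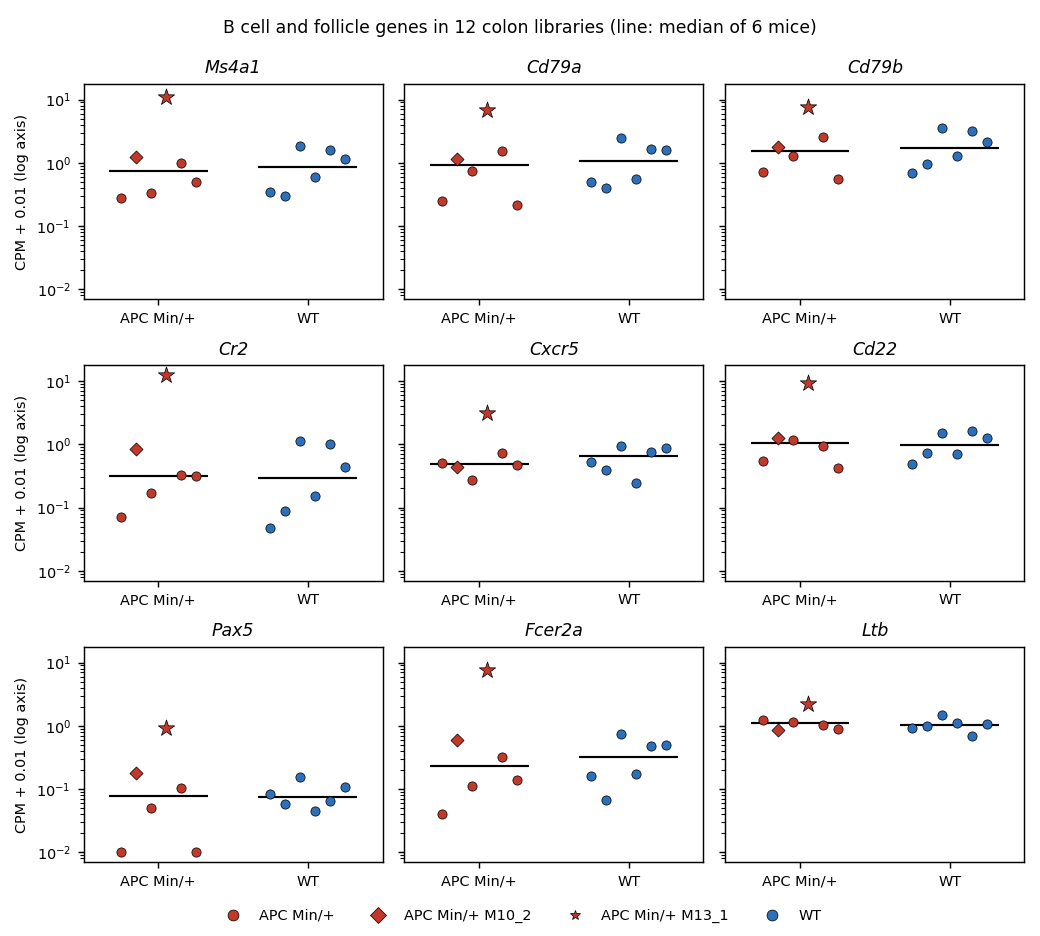
CPM + 0.01 of each of the 9 genes (vertical log axis) in the 6 APC Min/+ mice (red) and the 6 WT mice (blue), with a line at each genotype's median and M10_2 and M13_1 as a diamond and a star. The star is the highest point in every panel, at 12.4 CPM for Cr2 and 2.2 CPM for Ltb, while the other APC Min/+ points lie among or below the WT points for most genes.

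Counted over members, M13_1 was the highest of the 12 mice for 9 of 9, which held for 11.2% of all genes tested. It was at least 4 times the median of the other 11 mice for 8 of 9, which held for 2.01% of all genes tested, and the median over the 9 members was 9.74 times. The excess was uneven. It was largest for the receptors shared with follicular dendritic cells, at 47.6 times for Fcer2a and 40.5 times for Cr2, between 5.95 and 18.9 times for 6 B cell genes, and least for Ltb. From the same counts, the count of Cr2 per count of Cd79a was 1.82 in M13_1 (exact binomial 95% interval 1.65 to 2.01, or 1.58 to 2.1 with counts halved, both for counting error only), 0.733 in M10_2, 0.618 in M17_1 and 0.444 in M16_1. M20_1 had 1.5, from 24 counts over 16, with an interval of 0.764 to 3.02, or 0.564 to 4.23 with counts halved, and the other 7 mice lay between 0.0769 and 0.273.

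Per kilobase of transcript (RPKM), the order of mean levels in WT mice was Cd79b (1.38 ± 0.843, SD, n = 6), Cd79a (0.815 ± 0.582), Ltb (0.678 ± 0.165), Ms4a1 (0.468 ± 0.321), Cd22 (0.24 ± 0.108), Cxcr5 (0.218 ± 0.0991), Fcer2a (0.154 ± 0.118), Cr2 (0.0753 ± 0.0773) and Pax5 (0.0223 ± 0.0118). The ranges over the 6 WT mice overlapped for every neighbouring pair in this order. In M13_1, Ms4a1 (5.39 RPKM) and Cd79b (5.37 RPKM) were highest and were followed by Cd79a (4.68) and Fcer2a (3.41), with Cd22 (2.13), Cr2 (2), Ltb (1.45), Cxcr5 (1.12) and Pax5 (0.268) below. Ltb thus stood in the third place of the WT order and the seventh in M13_1, and Fcer2a in the seventh and the fourth.

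The comparison of genotypes asked whether B cell transcripts differ in the colon of APC Min/+ mice. The mean of each of the 9 members was higher in APC Min/+ mice, but edgeR's quasi-likelihood test called 0 of 9 (FDR under 0.05 and a change of at least 2-fold), as it did 0% of all genes tested. Without adjustment, p was under 0.05 for 0 of 9 members and for 5.27% of the 20311 genes tested (1071 genes). DESeq2 called 27 genes and edgeR's likelihood ratio test 15, none of them members, although DESeq2 gave a p-value and FDR for 5 of the 9 members. Its filter on single extreme samples (Cook's distance) set Ms4a1, Cr2, Cd22 and Fcer2a aside, and without that filter all 9 had an FDR, the lowest 0.766 (Cr2). The CPM ranges of the genotypes overlapped for all 9 members, and did not overlap for 0.118% of genes tested.

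The largest log2 fold change (APC Min/+ over WT) was that of Cr2, at 2.30 (SE 1.23, 95% interval -0.34 to 4.95, FDR = 0.908), from 2.35 ± 4.94 CPM in APC Min/+ mice and 0.467 ± 0.48 CPM in WT mice (SD, n = 6 each). Fcer2a followed with 2.07 (SE 1.14, 95% interval -0.40 to 4.53, FDR = 0.908), from 1.46 ± 3.03 and 0.345 ± 0.264 CPM. For both, the SD of the APC Min/+ mice exceeded their mean, and so it did for Ms4a1 (2.4 ± 4.27 CPM against 0.964 ± 0.66 CPM in WT mice), Cd79a (1.77 ± 2.53 against 1.19 ± 0.848), Cd79b (2.42 ± 2.68 against 1.97 ± 1.21), Cxcr5 (0.92 ± 1.11 against 0.615 ± 0.28), Cd22 (2.25 ± 3.43 against 1.04 ± 0.466) and Pax5 (0.204 ± 0.355 against 0.0763 ± 0.0406). Ltb was the exception, at 1.22 ± 0.502 CPM against 1.03 ± 0.251 CPM. The log2 fold changes of the remaining members were 1.39 for Pax5, 1.30 for Ms4a1, 1.11 for Cd22, 0.57 for Cd79a, 0.57 for Cxcr5, 0.29 for Cd79b and 0.25 for Ltb, and all 9 intervals included 0. The median over the 9 members was 1.11, and over all genes tested it was -0.0077. In exact two-sided permutation tests of mean log2(CPM + 0.5), which weigh M13_1 less, p lay between 0.485 (Ltb) and 0.978 (Cd79b), where the smallest p that 6 against 6 mice allow is 0.00216.

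Without M13_1 the direction turned. All 8 members still tested had a lower fitted level in APC Min/+ mice, as had 51.2% of all genes tested, with log2 fold changes of -0.65 for Cd79a, -0.57 for Fcer2a, -0.55 for Ms4a1, -0.52 for Cd79b, -0.49 for Cr2, -0.38 for Cxcr5, -0.27 for Cd22 and -0.004 for Ltb. None was larger than the spread between mice, with every interval including 0 and FDR between 0.987 and 1 in edgeR's quasi-likelihood test. Cr2, for instance, was 0.332 ± 0.291 CPM in the 5 remaining APC Min/+ mice, and its interval ran from -2.24 to 1.26, while that of Cd79a ran from -1.97 to 0.67. Pax5 fell below the filter, at 0.0613 ± 0.0729 CPM in the 5 APC Min/+ mice and 0.0763 ± 0.0406 CPM in WT mice (exact permutation test, two-sided p = 0.61, where 0.00433 is the smallest p possible). The other 11 fits that each left out 1 mouse kept every member they tested higher in APC Min/+ mice. With M10_2 left out as well, the log2 fold changes were between -1.32 (Fcer2a) and 0.06 (Ltb).

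**Figure D2:**
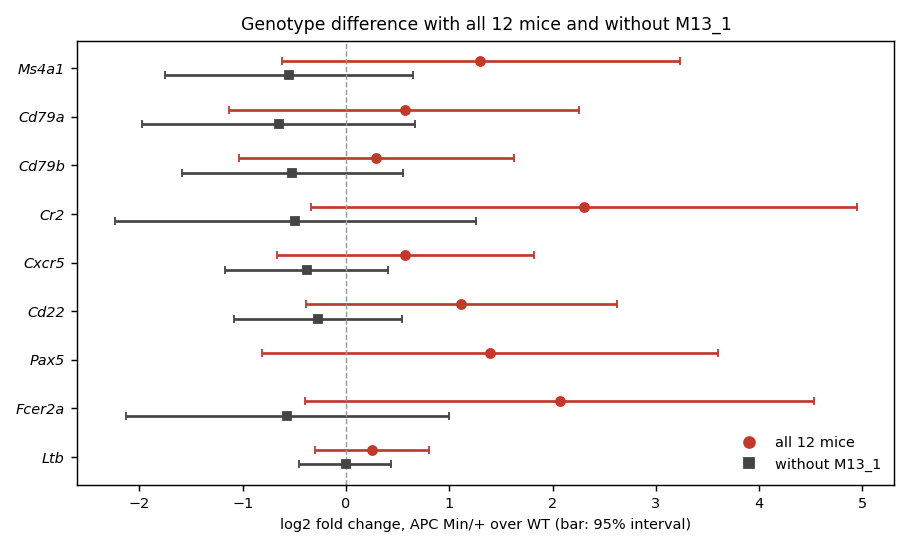
Log2 fold change of APC Min/+ over WT (horizontal axis) for the 9 genes, from edgeR's fit to all 12 mice (red circles) and to the 11 mice without M13_1 (grey squares), with 95% intervals. All red points lie above 0 and all grey points at or below 0, for example 2.30 and -0.49 for Cr2, and every interval includes 0. Pax5 has no grey point because it fell below the filter.

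The other 11 mice also differed among themselves, and along a shared order. WT mouse M16_1 was the highest of the 11 for 7 members and among the top 3 for all 9, with a sum of 13.7 CPM. It was followed by WT mice M17_1 (11 CPM) and M18_b (9 CPM) and APC Min/+ mice M2_A (8.48 CPM) and M10_2 (8.19 CPM). The remaining 6 mice, 3 of each genotype, lay between 3.44 and 5.17 CPM. M10_2, the other mouse with high Hoxb13, lay inside the range of the other mice. Across these 11 mice the Spearman correlation of CPM between members had a median of 0.77 over the 28 pairs without Ltb (range 0.43 to 0.96), and of -0.08 over the 8 pairs with Ltb (range -0.21 to 0.12). With M13_1 the medians were 0.82 and 0.17. Ms4a1 and Fcer2a gave the highest value of the 11 mice, 0.96, and Cd79a and Cd79b 0.95. All pairs share the same libraries and their depth, and the values are given as a description.

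**Figure D3:**
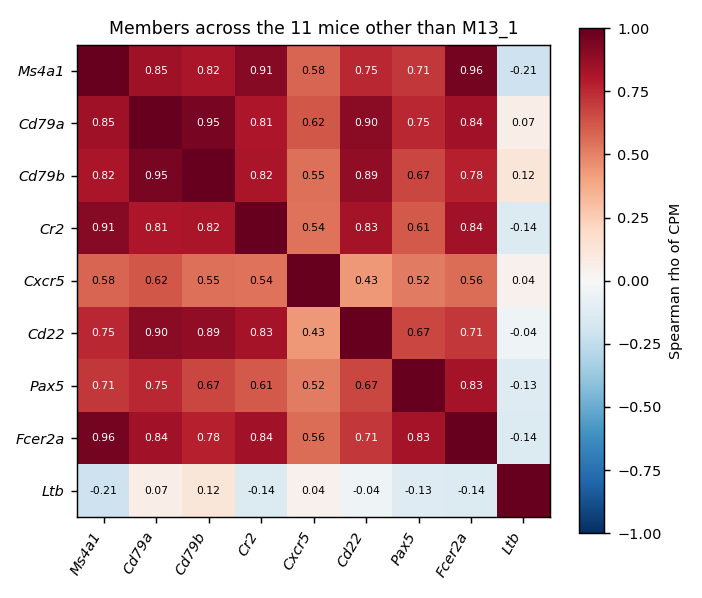
Spearman correlation of CPM between each pair of the 9 genes across the 11 mice other than M13_1, with the value in each cell and red for positive and blue for negative values. The 8 genes other than Ltb correlate at 0.43 to 0.96, and the row of Ltb lies between -0.21 and 0.12.

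Among the 10 genes whose levels were most like the members' over the 12 mice, by the Pearson correlation with the mean standardised log2(CPM + 0.5) of the members among 14892 genes, were Il21r (0.94), H2-DMb2 (0.93), H2-Ob (0.93), Bank1 (0.93), Cd37 (0.92), Clu (0.91), Btla (0.90), Cd72 (0.89) and Gm19840 (0.89). Without M13_1 none of these was among the 10 most alike, which included the antibody genes Igkv4-59 (0.91) and Ighg1 (0.89), and Ggact, Coa4, Brms1, Fkbpl, Dok2 and Cd52 at 0.87 to 0.89. Ighg1 was counted at 1.38 CPM in M13_1 and at a median of 11.9 CPM in the other 11 mice, so it followed the members among the 11 mice and not in M13_1.

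Of 20 further B cell genes listed, 19 were matched and tested, and Ighd is not analysed here. M13_1 was highest for 14 of the 19 and at least 4 times the median of the other 11 mice for 7, with a median over the list of 2.22 times. Fcmr, the IgM Fc receptor, was counted at 4.3 CPM in M13_1 and at 0.0103 to 0.355 CPM in the other mice, and Tnfrsf13c, the receptor for the survival factor BAFF, at 2.27 CPM against 0.107 to 0.605 CPM. Ighm, the IgM heavy chain, was 29.4 CPM in M13_1 and reached 27 CPM elsewhere. The 5 genes that were not highest in M13_1 were Ebf1, Pou2af1, Blnk, Bcl11a and Btk, among which Blnk was counted at 97.6 to 157 CPM in the other mice and at 99.3 CPM in M13_1. None of the 19 was called between genotypes, and the largest log2 fold change was that of Fcmr (2.38, SE 1.23, not past the threshold), which was -0.47 without M13_1. The median of the list was 0.34, and -0.20 without M13_1.

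Genes of follicle structure were less uniform. Of 19 tested genes for follicle organisers and lymphocyte homing, 9 were highest in M13_1 and 2 reached 4 times the median of the others, among them Ccr6, a chemokine receptor (2 CPM against 0.131 to 0.54 CPM). Cxcl13, the ligand of CXCR5, was 9.94 CPM in M13_1 against 2.52 to 6.72 CPM, Ccl20, the ligand of CCR6, was 4 CPM against 0.702 to 1.89 CPM, and Ccr7 was 1.06 CPM against 0.224 to 0.7 CPM. Glycam1, a mucin of high endothelial venules, was below the filter, with 296 counts in M13_1, 14 in M16_1, 8 or fewer in 4 mice and 0 in the other 6. Ccl21a and the lymphotoxin receptor gene Ltbr were not high in M13_1, at 37.7 CPM and 64.1 CPM against medians of 39 CPM and 78.1 CPM.

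Among 8 genes of follicular dendritic cells, 5 were highest in M13_1, namely Cr2, Fcer2a, Cxcl13, Clu (56.4 CPM against 15.5 to 27.5 CPM) and Mfge8 (63.7 CPM against 19 to 48 CPM), of which the first 3 are also members or listed above. Fcgr2b (7.13 CPM) and Prnp (89.2 CPM) were lowest there. Among 9 genes of the epithelium over follicles, whose M cells take up antigen, 4 were highest in M13_1, namely Gp2, Tnfsf11, Spib and Ccl20. Spib is also counted among the further B cell genes, and Ccl20 among the organiser and homing genes. Gp2, an M cell receptor for bacteria, was 1.06 CPM in M13_1, 0.798 in M10_2, 0.281 in M18_2b and 0.173 or less in the other mice, and thus did not follow the members among the other mice, since it was 0.0209 CPM in M16_1 and 0.0184 CPM in M17_1. Its log2 fold change was 2.73 (SE 1.18), and 2.07 without M13_1, neither past the threshold.

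Germinal centre genes did not share the excess. Of 9 tested, 1 was highest in M13_1 (Polh, 10.8 CPM against 5.89 to 9.49 CPM) and 0 reached 4 times the median of the others. Bcl6 was 13.3 CPM against 6.39 to 14.9 CPM, and Rgs13 was lowest in M13_1 (2.63 CPM against 3.75 to 13.2 CPM). Mef2b was at 0 in all 12 mice. Several of these genes are also expressed by colon epithelium, so their levels in this tissue are not those of B cells alone.

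**Figure D4:**
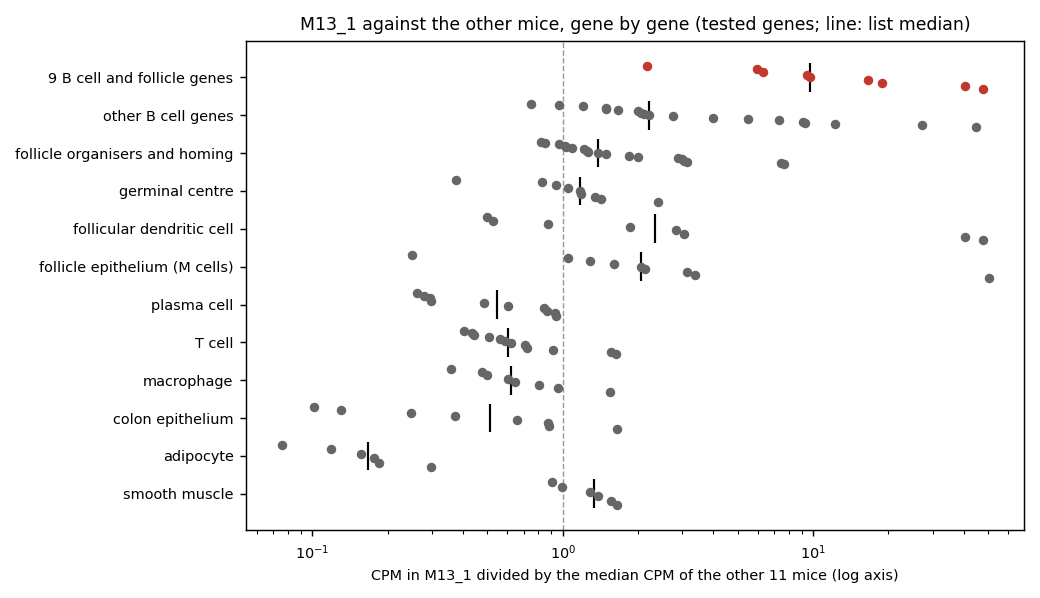
CPM in M13_1 divided by the median CPM of the other 11 mice (horizontal log axis) for each tested gene of 12 lists (rows), with a vertical line at each list's median and a dashed line at 1. The 9 B cell and follicle genes (red) lie at 2.18 to 47.6 times with a median of 9.74, the other B cell genes have a median of 2.22, and the plasma cell, T cell and macrophage lists have medians of 0.547, 0.607 and 0.624.

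Plasma cell, T cell and macrophage genes were mostly low in M13_1. M13_1 was the lowest of the 12 mice for 13.4% of all genes tested. Of 10 plasma cell genes, 0 were highest and 5 were lowest in M13_1, including Jchain, the joining chain of secreted IgA (48.7 CPM against 85.6 to 772 CPM), and Igha, the IgA heavy chain (111 CPM against 234 to 1369 CPM). Among 12 T cell genes, 1 was highest (Cd5) and 4 were lowest, with Cd3e at 0.839 CPM against 0.97 to 2.22 CPM. Of 8 macrophage genes, 6 were lowest in M13_1 and 0 were highest. M10_2 shared the low T cell levels. Its T cell list summed to 15.2 CPM, next to 14.2 CPM in M13_1 and 17.6 CPM or more elsewhere. The plasma cell list summed to 818 CPM in M10_2 and 548 CPM in M13_1, the lowest sums of the 12 mice. M8_2 was close to M10_2 in this sum, at 858 CPM. The macrophage list was not low in M10_2, at 338 CPM against 220 CPM in M13_1. M13_1 was thus high in B cell genes and low in genes of antibody secretion. Between genotypes, 0 genes of these lists were called. The largest log2 fold changes were -0.85 for Derl3 among plasma cell genes, -0.70 for Cd8a among T cell genes and 0.34 for Cd14 among macrophage genes.

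**Figure D5:**
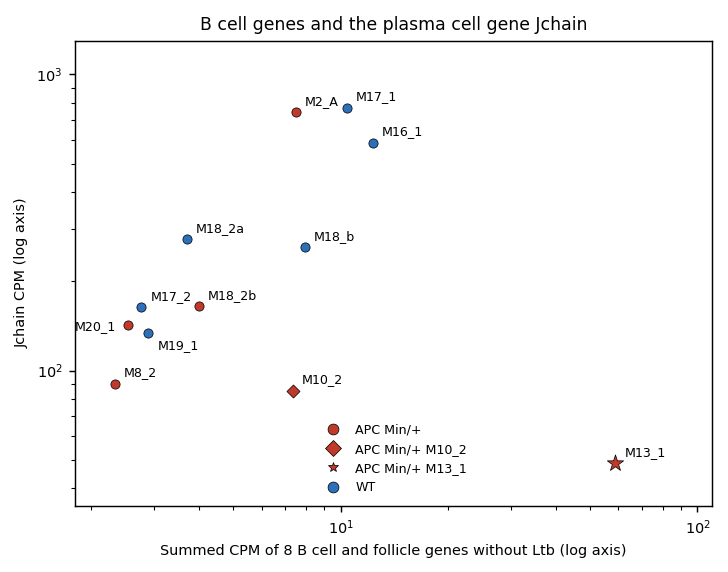
Summed CPM of the 8 genes without Ltb (horizontal log axis) and CPM of Jchain (vertical log axis) in the 6 APC Min/+ mice (red) and 6 WT mice (blue), each labelled by name. M13_1 lies at 58.9 and 48.7 CPM, at the far right and the bottom, M10_2 at 7.35 and 85.6 CPM, and M16_1, M17_1 and M2_A, with 7.47 to 12.3 CPM of the 8 genes, have the 3 highest Jchain values at 589 to 772 CPM.

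M16_1, M17_1 and M2_A, which were among the higher mice for the members, also had the highest Jchain, at 589, 772 and 748 CPM, whereas M18_b (261 CPM) and M10_2 (85.6 CPM) had similar sums of the members with less Jchain. In M10_2 and M13_1, several epithelial genes were low while distal colon transcripts were high. The sum of 8 colon epithelium genes was 10219 CPM in M10_2 and 10394 CPM in M13_1 against 26764 CPM or more in the other mice, and the gap lay mostly in Car1, a carbonic anhydrase (965 CPM in M10_2 and 2539 CPM in M13_1 against 14621 to 32560 CPM). Cdh1, or E-cadherin, was by contrast highest in M10_2 (1490 CPM) and M13_1 (1199 CPM), with a median of 726 CPM over the 11 mice other than M13_1. Muc2, the goblet cell mucin, was 1268 CPM in M13_1 against 1713 to 10534 CPM in the other 11, while Epcam was 1284 CPM in M13_1 against 1239 to 1624 CPM. Adipocyte genes were low in M13_1 (Adipoq 3.38 CPM against a median of 28.5 CPM, and Cidec 3.2 CPM against 42.5 CPM), so in M13_1 these markers of attached fat were not high together with the B cell genes. They were lower still in M10_2 (Adipoq 1.38 CPM, Cidec 1.71 CPM). In M2_A, among the higher mice for the members, they were the highest of the 12 mice (98.7 CPM and 87.9 CPM). In M13_1, smooth muscle genes lay at a median of 1.34 times the median of the other 11 mice, and 0 of 6 were highest there. Des was 674 CPM in M13_1 against 313 to 709 CPM.

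As to which libraries may hold follicle tissue, M13_1 was the highest for 9 of 9 members and 14 of 19 further B cell genes. It was also highest for Glycam1 and for 9 of 19 tested follicle organiser and homing genes, among them Ccr6, Cxcl13, Ccl20 and Ccr7. That list lay at a median of 1.39 times the other mice, with Ltbr and Ccl21a below the others' median. Of 8 follicular dendritic cell genes, 5 were highest in M13_1. Among these, Cr2, Fcer2a and Cxcl13 are already counted above, and only Clu and Mfge8 are further genes. Fcgr2b and Prnp were lowest in M13_1. The T cell, plasma cell and germinal centre lists lay at medians of 0.607, 0.547 and 1.17 times the other mice. M16_1 lay above the median of the 11 mice other than M13_1 for all 9 members, and M17_1 for 7, since its Pax5 equalled that median and its Ltb was the lowest of the 12 mice. Both had high Jchain. In the 6 lowest mice, Cd79a was counted 16 to 72 times, so B cell transcripts were present in every library. Histology of these samples was not analysed here, and the part of tissue position in the excess of M13_1 was not tested.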

How the data were processed

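RNA from the proximal colon of 12 mice was sequenced as paired reads of 100 bp. The authors aligned reads to GRCm38.p2 with STAR (version 2.3.0, per the submitters' processing notes) and counted them per gene with featureCounts, and they deposited unnormalized counts for 38924 genes, with a gene length (another value, in bases, per the file headers). The annotation release, strand setting and treatment of multi-mapping reads are not given in the sources used here. Gene symbols and coordinates came from GENCODE M21 (GRCm38), in which 37607 genes had a symbol. Total counts and precision are given with the results.

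Genotypes were compared with edgeR 4.0.16 (R 4.3.3), by its quasi-likelihood test after TMM normalization on 20311 genes, those that reached 10 counts in 3 or more mice. DEGs had a Benjamini-Hochberg FDR under 0.05 over all genes tested and a fold change of at least 2. P-values judge the difference between genotypes against the spread between mice. CPM and RPKM were computed from the counts, log values used a pseudocount of 0.5, and exact permutation tests were two-sided. DESeq2 1.42.0, a likelihood ratio test, other filters and scaling, and leaving out mice were alternatives. No 2 libraries agreed within sampling noise (lowest chi-square per degree of freedom over 66 pairs, 16.6).

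Genes named are the 9 members, the 10 genes most like them, set genes of each list and the gene of each list with the largest log2 fold change. Values of some genes under this rule are not reported here. Members and lists were chosen with earlier results of these data known. Comparisons with M13_1, the likeness without it, its permutation tests, the halved counts and DESeq2 without its Cook's distance filter were chosen after the data were seen.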

Additional observations from a re-analysis of the deposited data

Results flagged for a closer look

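In APC Min/+ mice, M13_1 stood far from the other 5 for each of the 9 members. Its gap to the next mouse, as a share of the range of the 6 mice, was 0.939 for Cr2, 0.928 for Fcer2a, 0.912 for Ms4a1, 0.902 for Cd22, 0.843 for Cxcr5, 0.813 for Pax5, 0.804 for Cd79a, 0.715 for Cd79b and 0.705 for Ltb, all above Dixon's 95% critical value for 6 samples. None of the 9 members had such a mouse among WT mice. Chance gives about 1 such case in 20 groups, and 18 groups were examined, but the 9 genes were measured in the same library and are not independent.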

How the results depend on the processing

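The number of DEGs over all genes was 0 in the quasi-likelihood test with another scaling, other filters or any mouse left out, 27 with DESeq2 (30 without its Cook's distance filter, a setting chosen after seeing the data) and 15 with edgeR's likelihood ratio test, and no member was among them. The median log2 fold change of the members was 1.11, and leaving out 1 mouse at a time gave -0.51 (without M13_1) to 1.35 (without M20_1). Over the same fits the value ranged from -0.55 to 1.62 for Ms4a1, -0.65 to 0.94 for Cd79a, -0.52 to 0.57 for Cd79b, -0.49 to 2.79 for Cr2, -0.38 to 0.77 for Cxcr5, -0.27 to 1.35 for Cd22, -0.57 to 2.47 for Fcer2a and -0.004 to 0.38 for Ltb, each lowest without M13_1, and from 1.24 to 1.68 for Pax5 in the 9 fits that tested it. Without M10_2 and M13_1 the median was -0.74, with -0.92 for Ms4a1, -0.85 for Cd79a, -0.64 for Cd79b, -1.21 for Cr2, -0.34 for Cxcr5, -0.46 for Cd22 and -1.32 for Fcer2a. Of the recomputed values, 219 were counted as unchanged, 15 log2 fold changes of members reversed direction and 5 values moved, all of the latter printed above. The 5 were the DEG counts of 27, 30 and 15 and the members' median log2 fold changes of -0.51 and -0.74. These medians also turned from positive to negative. The cause of the differences between tests was not tested. Depth limits Pax5 most. No paired analysis was possible because the mouse names share only the number in M18 between genotypes, and the labels do not say what that number or the suffixes mark.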
